A study of Mus musculus with 6 samples.

Results

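Autophagy genes were examined in bone marrow plasma cells, sorted as B220- CD138+ cells 7 days after the animals were boosted with KLH, and in resting follicular B cells (B220+ CD23+) sorted from spleen. Both groups came from C57BL/6 mice and had 3 Affymetrix arrays each, with no other genotype or treatment given. KLH, keyhole limpet hemocyanin, is a protein antigen, and the boost is stated for the plasma cells only. Plasma cells were also enriched on CD138 beads, and 50000 to 70000 of them were used per array against 2000000 to 3000000 B cells, so that tissue, boost, enrichment and input cannot be told apart from cell type. The gene set comprised 39 genes of the autophagy machinery, matched by gene symbol, of 18193 genes on the array with a single annotated symbol. Values were obtained for 37 of them, and Optn and Bnip3l are not analysed here because no probe set carried either symbol alone. All 37 lay above background, the 95th percentile of bacterial control probe sets (23.0 to 41.8 over the arrays), on all 6 arrays, and every measured member was tested.

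Autophagy encloses cytoplasm in a double membrane, the autophagosome, and delivers it to lysosomes. The ULK1 kinase complex starts the process, a class III PI3-kinase complex marks the growing membrane with the lipid PI3P, and the WIPI proteins that read this lipid act with ATG2 and ATG9 in membrane supply. A pair of ubiquitin-like conjugation reactions then attaches ATG8 family proteins (LC3 and GABARAP) to the membrane, where they hold cargo receptors such as p62. In mouse plasma cells autophagy is known to limit expansion of the endoplasmic reticulum (ER) and to sustain long-lived cells.

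Members were called in both directions. Of the 37 members, 12 were higher in plasma cells, 4 were lower and 21 did not pass the test (limma on log2(intensity + 16), Benjamini-Hochberg adjusted p under 0.05 over all genes). The higher members made up 32.4% of the measured members, where 17.7% of all genes were called higher, and 22.8% of the 10684 genes above background on every array. For the lower members the share was 10.8%, against 12.4% of all genes and 17.7% of those above background on every array. A change of at least 2-fold was called for 6 higher members (11.1% of all genes were called higher by this much) and 2 lower ones (6.82%). The 3 plasma cell arrays were all above the 3 B cell arrays for 20 members (25.5% of all genes) and all below them for 5 (22.6%), and the groups overlapped for 12. The median log2 fold change was 0.34 over the members and −0.06 over all genes. With each array centred on its median, which moved the median of all genes to −0.27, 6 members were higher and 3 lower, beside 2008 higher and 2727 lower genes in all, against 3213 and 2248 as deposited. The count of lower members was 9 without B cell array 1 and 2 without B cell array 2 or 3 or plasma cell array 1 or 2. Over all genes the same fits called 3856 lower without B cell array 1 and 1351 to 1540 in the others. An uncalled member is not shown to be equal in both cell types. In bulk RNA a difference of this kind does not separate fewer expressing cells from less RNA per cell.

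**Figure D1:**
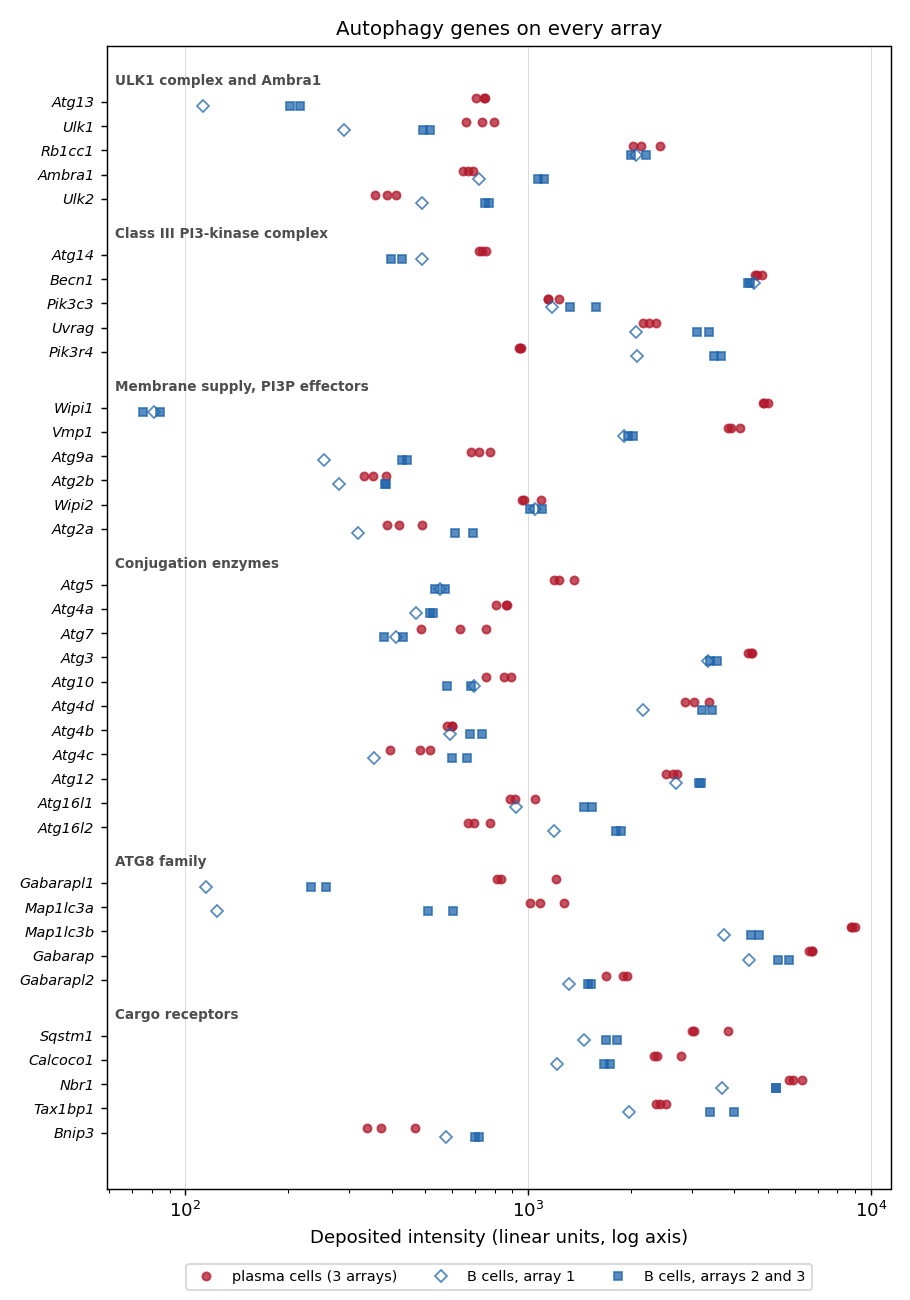
Deposited intensity (log axis) of the 37 measured autophagy genes on each array, plasma cells as red circles and B cells in blue (open diamond, array 1; squares, arrays 2 and 3), grouped by role. Wipi1 has the widest gap, 4918 on average in plasma cells against 80.3 in B cells, and the open diamond lies left of the squares for 29 genes.

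B cell array 1 stood apart from the other arrays of its group. Its log2 values correlated with those of B cell arrays 2 and 3 at 0.945 and 0.941 over probe sets, while these had 0.993 with each other. It was the lowest of the B cell arrays for 29 of the 37 members, against 44.8% of all genes, and set against the average of arrays 2 and 3 its log2 value differed by a median of −0.33 over the members and −0.01 over all genes. All genes include dim ones, unlike the members, and genes of like intensity were not compared. The median intensity over probe sets was 130 on this array and 88.1 and 86.7 on arrays 2 and 3. Values under 16 made up 13.1%, 20.7% and 22.6% on B cell arrays 1 to 3. This shift is thus not shown to be particular to the members. The summed intensity of 10 T and NK cell markers was 5226 on this array, 253 and 306 on B cell arrays 2 and 3, and 5814 to 6214 on the plasma cell arrays. In plasma cells Cd28, a gene also known from plasma cells, carried most of it. On B cell array 1 Cd3e (1965), Cd3d (1139) and Cd3g (577) did, with Cd28 at 130. Of these 10, Cd28 and Cd4 (388 on average in plasma cells, 17.1 in B cells) were called higher and 8 were not called. For 10 granulocyte markers the sum was 8588 to 20149 in plasma cells, and 12923, 3017 and 2002 on B cell arrays 1 to 3. S100a8 and S100a9 carried most of it on every array. Of these 10, Mpo was called higher in plasma cells, Csf3r lower and 8 were not called. The sum was 2278 to 4747 in plasma cells and 3817 to 5430 in B cells for 10 erythroid markers, most of it Tfrc, a gene of many dividing cells, and 3697 to 4519 in plasma cells and 4143 to 6754 in B cells for 11 monocyte and macrophage markers. Of these 11, Mrc1 (1189 on average in plasma cells, 76.0 in B cells) and Cd68 (1082 in plasma cells, 311 in B cells) were called higher, and Lyz2, Adgre1, Csf1r and Ccr2 lower. No marker of these 4 lists lay within background on all arrays. The part of these cells in the results below was not tested. Xist was at 8070 to 8702 in plasma cells and at 8408, 30.8 and 18.1 on B cell arrays 1 to 3. The sex-linked Kdm5d was at 3.0 to 8.84 in plasma cells and at 3.57, 1507 and 1576 on those B cell arrays. Sex was thus unevenly spread between the groups with all 6 arrays, and leaving out B cell array 1 confounds it fully with cell type. The part of sex in the results was not tested. All 8 plasma cell markers were called higher and all 7 measured B cell markers lower, as the labels state. Sdc1 and Fcer2a are among them and encode CD138 and CD23, which were used for the sort. Their directions are therefore no separate check of the labels.

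Without B cell array 1 the 12 higher and 4 lower members were all called again. Ulk1 and Map1lc3a joined the higher ones, giving 14, and Ambra1, Uvrag, Atg2a, Atg16l1 and Tax1bp1 the lower ones, giving 9. Over all genes that fit called 22.7% higher and 21.2% lower. The members' median log2 fold change was then 0.18.

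**Figure D2:**
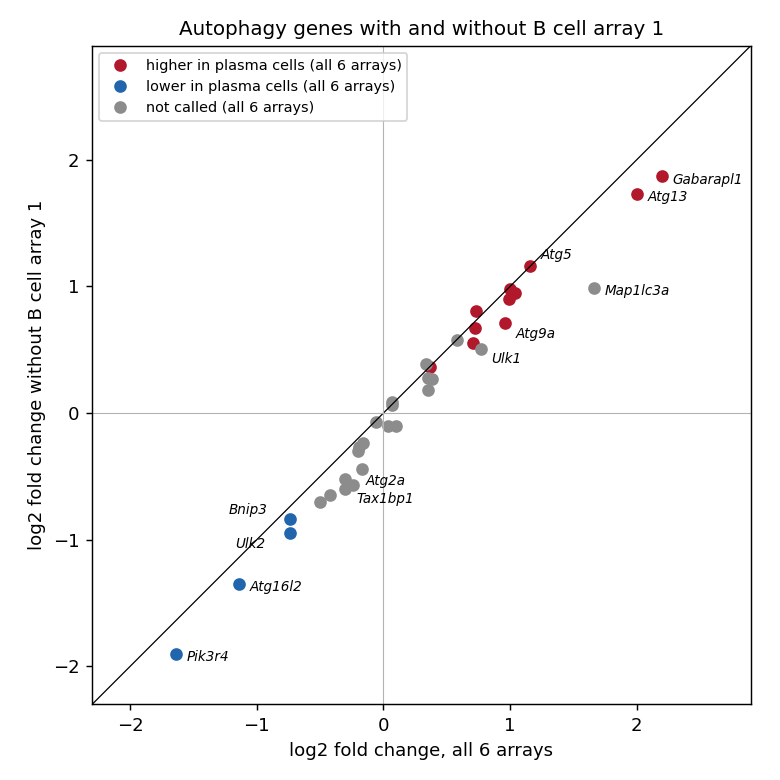
Log2 fold change of plasma cells over B cells with all 6 arrays (horizontal axis) and without B cell array 1 (vertical axis) for 36 autophagy genes, coloured by the call with all arrays. Wipi1, at 5.68 and 5.69, lies off the scale. Most genes lie on or below the line of equal values, Map1lc3a furthest from it (1.66 and 0.99).

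In the ULK1 complex, which carries the signal that starts autophagy, 1 member was higher and 1 lower of 5 (17.7% and 12.4% of all genes). Atg13, the regulatory subunit that links the kinase to its scaffold, was at 742, 751 and 703 in plasma cells, against 113, 216 and 202 on B cell arrays 1 to 3. Every plasma cell array was thus more than 3-fold above every B cell array, and the log2 fold change was 2.00 ± 0.25 (SE), with adjusted p = 0.00199. A second probe set of Atg13 also rose, by 0.95, while the dimmest, at 0.50, was not called. The paralogous kinases Ulk1 and Ulk2 had log2 fold changes of opposite sign. Ulk2 was at 388, 359 and 412 in plasma cells, against 491, 749 and 768 in B cells (−0.74 ± 0.20, adjusted p = 0.0389). This call was lost when any 1 of the arrays other than B cell array 1 was left out, with adjusted p between 0.089 and 0.128, with a replicate block (0.0748), after median centring (0.0504) and with an added constant of 1 (0.0515). Of its other 3 probe sets 2 were lower as well, by 1.05 and 1.3 on the log2 scale. Ulk1 was at 661, 734 and 794 in plasma cells and 291, 493 and 519 in B cells. The groups did not overlap, yet the difference of 0.77 ± 0.24 did not pass the test (adjusted p = 0.0626), and it did without B cell array 1 (0.51, adjusted p = 0.0177). Rb1cc1, the scaffold FIP200, was at 2137, 2424 and 2030 in plasma cells and 2065, 2004 and 2210 in B cells, overlapping ranges with a difference of 0.07 ± 0.13. For Ambra1, a regulator of ULK1 and Beclin 1, the difference was −0.50 ± 0.19 (adjusted p = 0.11).

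The class III PI3-kinase complex also had 1 member higher and 1 lower of 5 (17.7% and 12.4% of all genes). Pik3r4, which encodes the regulatory subunit VPS15, had the lowest log2 fold change of all members. Its intensity was 939, 952 and 947 in plasma cells, against 2082, 3668 and 3495 in B cells (−1.64 ± 0.24, adjusted p = 0.00372), 3.12-fold lower in plasma cells. Its only probe set has the suffix s, given by the manufacturer to sets that can match several transcripts. The catalytic subunit Pik3c3, which encodes VPS34 and works with VPS15, averaged 1171 ± 49.9 in plasma cells and 1361 ± 204 in B cells (SD, n = 3 each), a difference of −0.20 that did not pass the test. Becn1, which encodes Beclin 1, was at 4588, 4812 and 4668 in plasma cells and 4578, 4371 and 4436 in B cells. These values differed by a log2 fold change of 0.07 ± 0.11, and none of its 5 probe sets was called. Atg14, the subunit that targets the complex to autophagosome formation, was at 721, 756 and 735 in plasma cells against 492, 399 and 430 in B cells (0.73 ± 0.13, adjusted p = 0.00767; lost after median centring, 0.094). Uvrag, which places it on endosomes instead, had a difference of −0.30 ± 0.21 that was not called. Without B cell array 1 it was −0.52 with adjusted p = 0.00931.

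Among the 6 genes of membrane supply and PI3P binding, 3 were higher and 0 lower (17.7% and 12.4% of all genes). Wipi1, a WIPI protein that binds PI3P on the forming autophagosome, had the highest log2 fold change of all members. It was at 5029, 4878 and 4846 in plasma cells, against 81.0, 84.6 and 75.2 in B cells. The groups lay far apart, with a log2 fold change of 5.68 ± 0.11 (adjusted p = 1.84e-05), a 51.3-fold difference. This probe set also carries the suffix s. Of the other 5 probe sets of Wipi1, 4 were called higher with log2 fold changes of 2.94, 3.85, 4.79 and 5.18, and the remaining one was not (−0.06 ± 0.33). The mean of all 6 gave 3.73. Its paralog Wipi2, which recruits ATG16L1, averaged 1008 ± 70.5 in plasma cells against 1054 ± 44.2 in B cells, and none of its 3 probe sets was called.

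Vmp1, an ER membrane protein needed for autophagosome formation, was at 3833, 3899 and 4148 in plasma cells, against 1912, 1963 and 2031 in B cells. The ranges lay far apart (1.00 ± 0.11, adjusted p = 0.0013), and its second probe set rose by 1.61. Atg9a, the transmembrane protein of the vesicles that seed the membrane, was at 683, 719 and 775 in plasma cells, against 254, 429 and 443 in B cells (0.96 ± 0.23, adjusted p = 0.0258). Its call was lost without any 1 of the plasma cell arrays (adjusted p between 0.0758 and 0.0876) and after median centring (0.124). The lipid transfer genes Atg2a and Atg2b were not called, with differences of −0.24 and 0.04. For Atg2a the value without B cell array 1 was −0.57 (adjusted p = 0.0233).

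**Figure D3:**
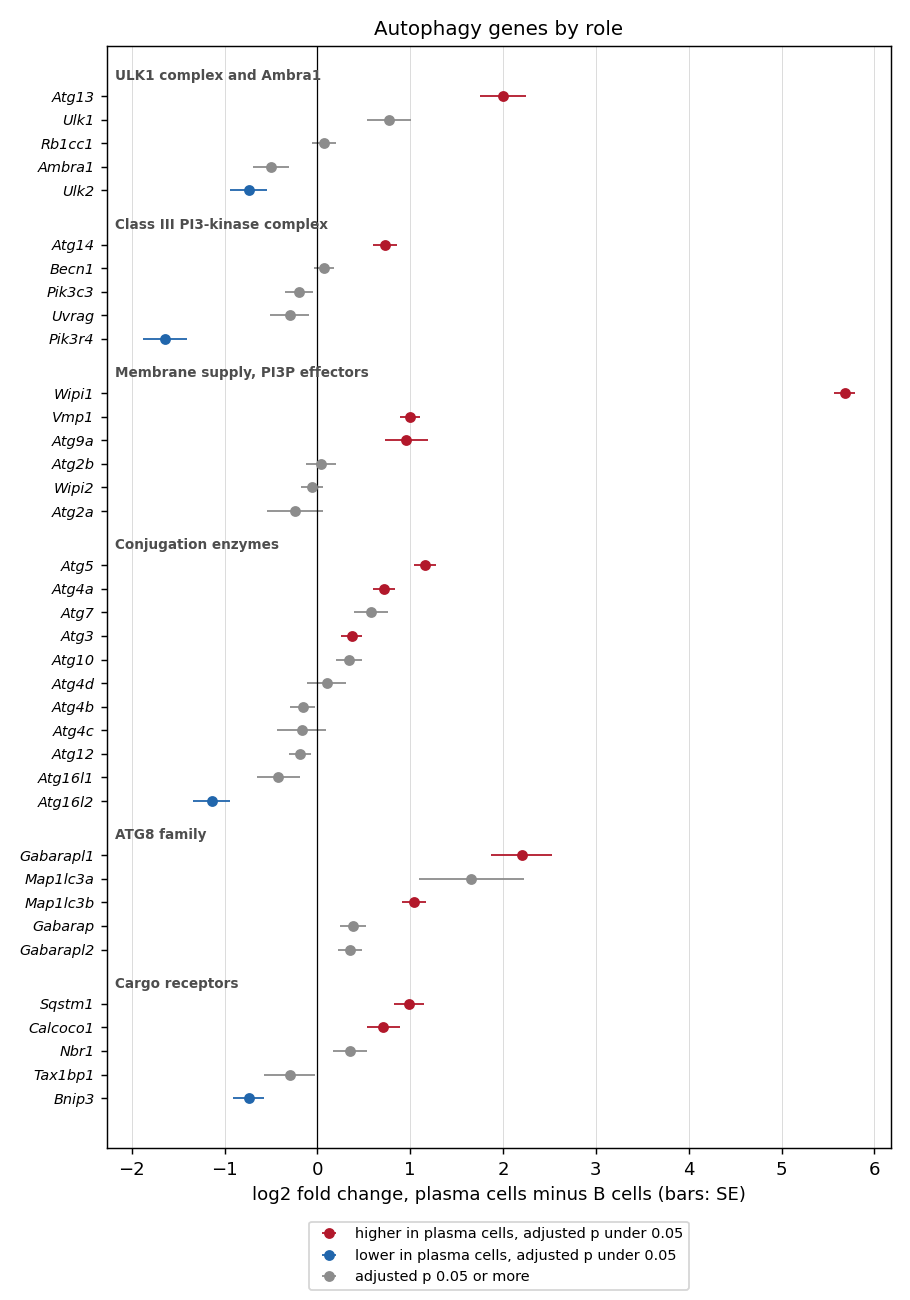
Log2 fold change of plasma cells over B cells with its standard error for the 37 measured autophagy genes, by role. Wipi1 (5.68) stands alone at the right, all 5 ATG8 genes lie to the right of 0, and Pik3r4 (−1.64) and Atg16l2 (−1.14) lie furthest to the left.

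The conjugation enzymes join ATG12 to ATG5 and ATG8 proteins to lipid. Of these 11, 3 were higher and 1 lower (17.7% and 12.4% of all genes). Atg5, whose product carries ATG12, was at 1362, 1232 and 1192 in plasma cells, against 554, 534 and 574 in B cells. Every plasma cell array was above 2 times the highest B cell array (1.16 ± 0.12, adjusted p = 0.000939), and its other 2 probe sets rose by 1.74 and 1.79. Its partner Atg12 averaged 2631 ± 97.5 in plasma cells against 3013 ± 268 in B cells, not a called difference (−0.19). The ATG16L proteins complete this complex on the membrane. Atg16l2, the less studied of the pair, was at 697, 670 and 774 in plasma cells, against 1194, 1802 and 1873 in B cells (−1.14 ± 0.20, adjusted p = 0.0085), and its other probe set fell by 1.43. Atg16l1, the form required for canonical autophagy, was at 918, 887 and 1050 in plasma cells and 920, 1457 and 1542 in B cells. Its groups overlapped through B cell array 1, and the difference of −0.42 ± 0.23 was not called (−0.65 without that array, adjusted p = 0.00782).

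Of the ATG4 proteases, which trim ATG8 proteins and release them from lipid, only Atg4a was called by its brightest probe set. It was at 805, 861 and 867 in plasma cells, against 470, 517 and 530 in B cells (0.72 ± 0.12, adjusted p = 0.00555; lost after median centring, 0.138). The log2 fold changes of Atg4b, Atg4c and Atg4d were −0.16, −0.17 and 0.10. With the mean of all probe sets Atg4b (−0.43, adjusted p = 0.0403) and Atg4c (−0.68, adjusted p = 0.00771) were called lower. Atg3, the E2-like enzyme that transfers ATG8 proteins to lipid, was at 4484, 4375 and 4514 in plasma cells, against 3357, 3388 and 3570 in B cells. The difference was small (0.37 ± 0.11, adjusted p = 0.0461). It was lost under 10 of the 16 alternatives, among them the omission of any 1 array other than B cell array 1 (adjusted p between 0.0939 and 0.154), and with the mean of both probe sets (0.07, adjusted p = 0.69). The E1-like Atg7 was at 488, 754 and 635 in plasma cells and 412, 381 and 433 in B cells, without overlap but not called (0.58 ± 0.18, adjusted p = 0.0647). Of its other 3 probe sets 1 rose, by 0.76. For Atg10, the E2-like enzyme for ATG12, the difference was 0.34 ± 0.14 (adjusted p = 0.118).

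By their brightest probe sets the 5 ATG8 genes lay higher on every plasma cell array than on any B cell array. So did 25.5% of all genes. Of the 5, 2 were called higher, where 17.7% of all genes were. Gabarapl1 was at 835, 813 and 1208 in plasma cells, against 115, 233 and 258 in B cells. Its log2 fold change was 2.20 ± 0.33 (adjusted p = 0.00427), second among the members after Wipi1, and its other probe set rose by 2.87. Map1lc3b, which encodes LC3B, the usual marker of autophagosomes, was at 8817, 8739 and 8992 in plasma cells, against 3731, 4713 and 4463 in B cells (1.04 ± 0.13, adjusted p = 0.00233). Of its other 3 probe sets 2 were called higher, by 0.76 and 1.16, and the third, at 1.11, was not (adjusted p = 0.0519). Map1lc3a, which encodes LC3A, was at 1083, 1012 and 1272 in plasma cells, against 124, 512 and 604 in B cells. B cell array 1 lay more than 4-fold under the other B cell arrays, and the difference of 1.66 ± 0.57 was not called (adjusted p = 0.0795). Without that array it was 0.99 with adjusted p = 0.00463, and its other probe set was called higher by 1.71 (adjusted p = 0.0119). Gabarap averaged 6713 ± 76.4 in plasma cells against 5189 ± 686 in B cells (0.38 ± 0.14, adjusted p = 0.0967). For Gabarapl2 the means were 1842 ± 134 in plasma cells against 1445 ± 113 in B cells (0.35 ± 0.13, adjusted p = 0.0954). Its dimmer probe set ran the other way, at 277, 251 and 246 in plasma cells against 483, 305 and 304 in B cells (−0.44, not called), and the mean of both gave −0.05.

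Cargo receptors bind both ATG8 proteins and the material to be degraded. Of the 5 measured 2 were higher and 1 lower (17.7% and 12.4% of all genes). Sqstm1, which encodes p62, the receptor for ubiquitinated proteins, was at 3018, 3057 and 3833 in plasma cells, against 1457, 1687 and 1822 in B cells. The groups lay well apart (0.99 ± 0.16, adjusted p = 0.00563), though the call was lost after median centring (0.0529) and its second probe set, at 1.5 ± 0.48, was not called (adjusted p = 0.063). Nbr1, a related ubiquitin-binding receptor, was at 6294, 5936 and 5762 in plasma cells and 3679, 5280 and 5309 in B cells, a difference of 0.35 ± 0.18 that was not called, while its other probe set was called higher (0.49, adjusted p = 0.0462). Calcoco1, described as a receptor for ER fragments, was at 2334, 2387 and 2798 in plasma cells, against 1218, 1738 and 1672 in B cells (0.71 ± 0.18, adjusted p = 0.0316). Its call rests on 1 of 2 probe sets, since the other had −0.61 ± 0.48 and the mean of both 0.05 (adjusted p = 0.88). It was also lost on leaving out any 1 array other than B cell array 1 (adjusted p between 0.0515 and 0.104), with a replicate block (0.0554) and after median centring (0.217). Tax1bp1, a receptor for ubiquitinated cargo, had −0.30 ± 0.27 and was not called, and −0.60 without B cell array 1 (adjusted p = 0.00958).

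The mitophagy receptor Bnip3 was the cargo receptor that fell. It was at 339, 372 and 469 in plasma cells, against 577, 722 and 701 in B cells (−0.74 ± 0.17, adjusted p = 0.0219). The call was lost without B cell array 2 or 3 or plasma cell array 1 or 2, with adjusted p between 0.0738 and 0.086.

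Set side by side, the 10 initiation genes (ULK1 and PI3-kinase complexes) had 2 higher and 2 lower members. Their median log2 fold change was −0.07, close to the −0.06 of all genes, of which 17.7% were called higher and 12.4% lower. The 16 conjugation genes, enzymes and ATG8 proteins together, had 5 higher and 1 lower with a median of 0.36. The 11 enzymes alone had a median of 0.10 and the ATG8 genes alone one of 1.04. For the 5 cargo receptors the median was 0.35. Without B cell array 1 the initiation genes had 3 higher and 4 lower members, with a median of −0.12. The conjugation genes then had 6 higher and 2 lower with a median of 0.32, the enzymes alone having −0.10. For the cargo receptors it was 2 higher and 2 lower, with a median of 0.18. That fit called 22.7% of all genes higher and 21.2% lower. No difference between the roles was tested.

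Of the 37 members 28 had several probe sets. Among the 12 called members with several, a second probe set was called in the same direction for 9, and none had a probe set called in the opposite direction.

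**Figure D4:**
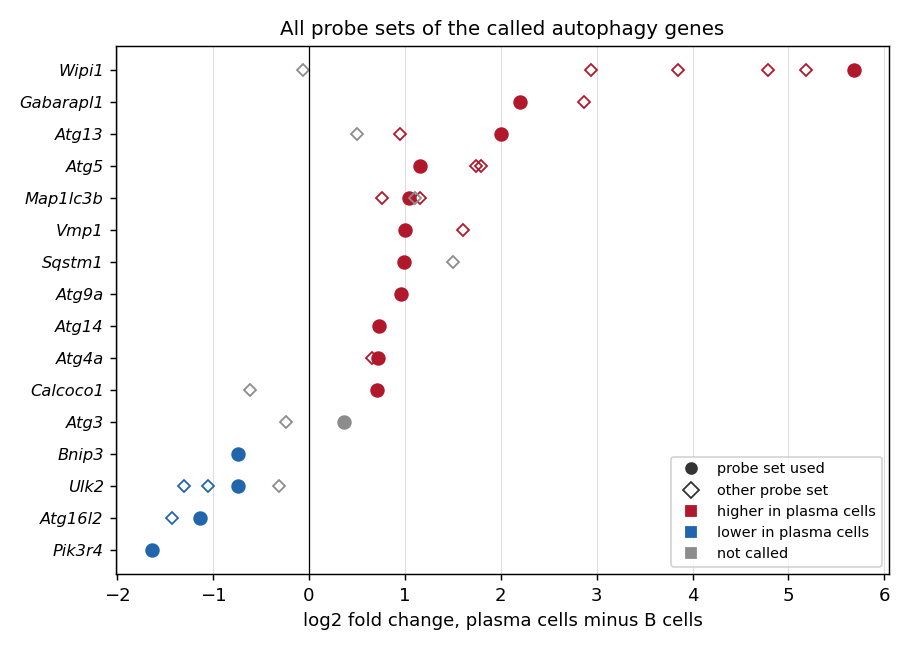
Log2 fold change of every probe set of the 16 called autophagy genes, each fitted on its own with p-values adjusted over all probe sets; filled circles are the probe sets used for the gene and open diamonds the others. Grey marks sets that were not called, among them the one used for Atg3 (adjusted p = 0.0563), and no gene has a red and a blue symbol together.

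Promoter windows of 300 bases (250 before and 50 after the start of transcription, RefSeq, build GRCm38.p6) were available for 31 of the 37 members. They were searched on both strands for CACGTG, the E-box core bound by the TFEB family, for its longer form TCACGTGA, for TGACGTGG, bound by XBP1, and for TGACGTCA, the cAMP response element. CACGTG lay in the windows of 5 members (Atg3, Atg5, Atg7, Atg14 and Bnip3), 16.1%, against 8.09% of 27025 genes. These were 3 of the 12 higher members (25.0%), 1 of the 4 lower ones (25.0%) and 1 of the 15 uncalled ones with a window. TCACGTGA, which contains CACGTG, occurred in Atg3 and in 1.12% of all genes. TGACGTCA occurred in Atg5 and Atg16l2 and in 2.03% of all genes, and TGACGTGG in 0 members and 0.714% of all genes. The windows are shown for the members with the highest and the lowest log2 fold change, Wipi1 (chr11:109611340-109611639, minus strand) and Pik3r4 (chr9:105642745-105643044, plus strand), neither of which held any of these letters. They are also shown for Atg5 (chr10:44268089-44268388, plus strand), with CACGTG and TGACGTCA, and Atg3 (chr16:45158579-45158878, plus strand), with CACGTG at 2 places. Capitals mark the matches, and each window is written 5′ to 3′ in the direction of the gene.
Wipi1: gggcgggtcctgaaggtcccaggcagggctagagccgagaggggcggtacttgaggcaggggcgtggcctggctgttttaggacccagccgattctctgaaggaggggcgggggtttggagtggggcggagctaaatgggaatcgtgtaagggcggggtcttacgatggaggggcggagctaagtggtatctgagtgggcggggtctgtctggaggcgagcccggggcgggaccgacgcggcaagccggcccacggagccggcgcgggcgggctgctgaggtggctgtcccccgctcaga
Pik3r4: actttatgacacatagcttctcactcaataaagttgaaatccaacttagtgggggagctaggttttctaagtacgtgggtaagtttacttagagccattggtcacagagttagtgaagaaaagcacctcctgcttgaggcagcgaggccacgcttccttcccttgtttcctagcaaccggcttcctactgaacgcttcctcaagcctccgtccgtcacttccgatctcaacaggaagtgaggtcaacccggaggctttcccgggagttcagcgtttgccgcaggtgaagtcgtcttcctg
Atg5: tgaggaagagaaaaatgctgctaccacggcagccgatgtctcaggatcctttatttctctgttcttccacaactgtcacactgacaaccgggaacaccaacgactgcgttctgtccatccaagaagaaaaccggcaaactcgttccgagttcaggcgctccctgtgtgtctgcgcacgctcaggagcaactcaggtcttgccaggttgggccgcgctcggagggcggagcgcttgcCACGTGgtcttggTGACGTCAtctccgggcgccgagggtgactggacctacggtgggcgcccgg
Atg3: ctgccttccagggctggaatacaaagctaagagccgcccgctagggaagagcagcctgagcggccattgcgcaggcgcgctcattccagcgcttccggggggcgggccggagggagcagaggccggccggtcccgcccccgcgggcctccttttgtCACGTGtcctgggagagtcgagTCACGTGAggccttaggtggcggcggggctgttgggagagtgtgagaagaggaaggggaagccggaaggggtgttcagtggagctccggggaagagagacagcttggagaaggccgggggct

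A further 53 genes that act around this machinery were examined, of which 52 were measured. Of these, 16 were higher in plasma cells (30.8%, against 17.7% of all genes) and 9 lower (17.3%, against 12.4%), with a median log2 fold change of 0.20. Above background on every array lay 49 of the 52. Among all genes that did so, 22.8% were called higher and 17.7% lower, the latter close to the share of lower genes here. Higher ones numbered 8 without plasma cell array 1 or 2 and 10 without plasma cell array 3, and lower ones 15 without B cell array 1. Those fits called 2239, 2326 and 2435 of all genes higher without plasma cell arrays 1, 2 and 3, and 3856 lower without B cell array 1. Rubcn, which encodes Rubicon, an inhibitor of the UVRAG form of the PI3-kinase complex, was at 298, 291 and 344 in plasma cells, against 1615, 2644 and 2806 in B cells (−2.82 ± 0.24, adjusted p = 0.000496). This difference was larger than that of any of the 37 members that fell. Bcl2l1, which encodes the survival protein BCL-XL, a Beclin 1 binder, was at 1205, 1272 and 1369 in plasma cells, against 194, 180 and 165 in B cells (2.73 ± 0.12, adjusted p = 7.01e-05). Its relative Bcl2 was not called (−0.09 ± 0.14). Trp53inp2, which encodes an ATG8-binding protein, was at 2482, 2479 and 2664 in plasma cells, against 472, 577 and 654 in B cells (2.14 ± 0.15, adjusted p = 0.000283), a call that was lost with the mean of its probe sets (0.054). Trp53inp1 and Nrbf2 rose as well, by 1.22 and 0.48, the call of Nrbf2 being lost under 7 of 16 alternatives (adjusted p up to 0.426).

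Receptors that deliver ER to autophagosomes moved in both directions. Ccpg1, an ER-resident receptor known as a target of ER stress signalling, was at 5460, 5356 and 5162 in plasma cells, against 705, 808 and 961 in B cells (2.68 ± 0.15, adjusted p = 0.000123). Tex264 rose by 1.34 ± 0.18, Atl3 by 0.83 ± 0.12 and Sec62 by 0.58 ± 0.13, the call of Atl3 being lost after median centring (adjusted p = 0.0568) and that of Sec62 under 6 of 16 alternatives (adjusted p up to 0.283). Retreg1, which encodes FAM134B, a receptor that curves ER sheets, was at 2968, 2703 and 2946 in plasma cells, against 5210, 5170 and 5143 in B cells (−0.85 ± 0.11, adjusted p = 0.00247). Its paralog Retreg3 was also lower (−0.97 ± 0.23), a call lost under 6 of 16 alternatives (adjusted p up to 0.0849), and Retreg2 and Rtn3 were not called. Also called from this list, which holds cargo receptors and genes that work with them, were Wdfy3 (1.35), Pink1 (0.81) and Fundc1 (0.61), all higher, and Fyco1 (−1.35). The calls of Pink1 and Fundc1 were lost under 6 and 8 of the alternatives, and that of Wdfy3 on averaging its probe sets (adjusted p = 0.217).

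Of 13 genes for fusion of autophagosomes with lysosomes, 3 were lower (23.1%, against 12.4% of all genes) and 2 higher (15.4%, against 17.7%). All 13 lay above background on every array, and of all genes that did, 17.7% were lower and 22.8% higher. Without B cell array 1, 8 were lower, where 21.2% of all genes were, and Vps11, Vps16, Vps18, Vps39 and Vps41 were those added. The autophagosomal SNARE Stx17 was at 267, 312 and 373 in plasma cells, against 728, 925 and 958 in B cells (−1.41 ± 0.18, adjusted p = 0.00232), lost with the mean of its 4 probe sets (0.0687). Its partner Snap29 fell by 1.26 ± 0.16 and the tethering adaptor Plekhm1 by 1.45 ± 0.14 on the log2 scale. The lysosomal SNARE Vamp8 and the SNARE Ykt6 were higher, by 0.61 and 0.53, each lost under 5 of 16 alternatives. Of the transcription regulators, Tfeb, a driver of lysosome and autophagy genes, was at 341, 371 and 366 in plasma cells, against 746, 1479 and 1460 in B cells (−1.66 ± 0.29, adjusted p = 0.0072). Foxo1 was lower too (−1.01 ± 0.16). The TFEB relatives Tfe3 and Mitf were higher, Tfe3 at 2930, 2933 and 2838 in plasma cells against 1667, 2041 and 2008 in B cells (0.61 ± 0.13, adjusted p = 0.0166) and Mitf at 1162, 1237 and 974 in plasma cells against 649, 156 and 152 in B cells (2.08 ± 0.56, adjusted p = 0.0361). The calls of Tfe3 and Mitf were lost under 5 and 7 of the alternatives. The last gene called was Tmem41b, an ER protein that acts with VMP1, which rose by 0.84 (lost after median centring, adjusted p = 0.0628).

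**Figure D5:**
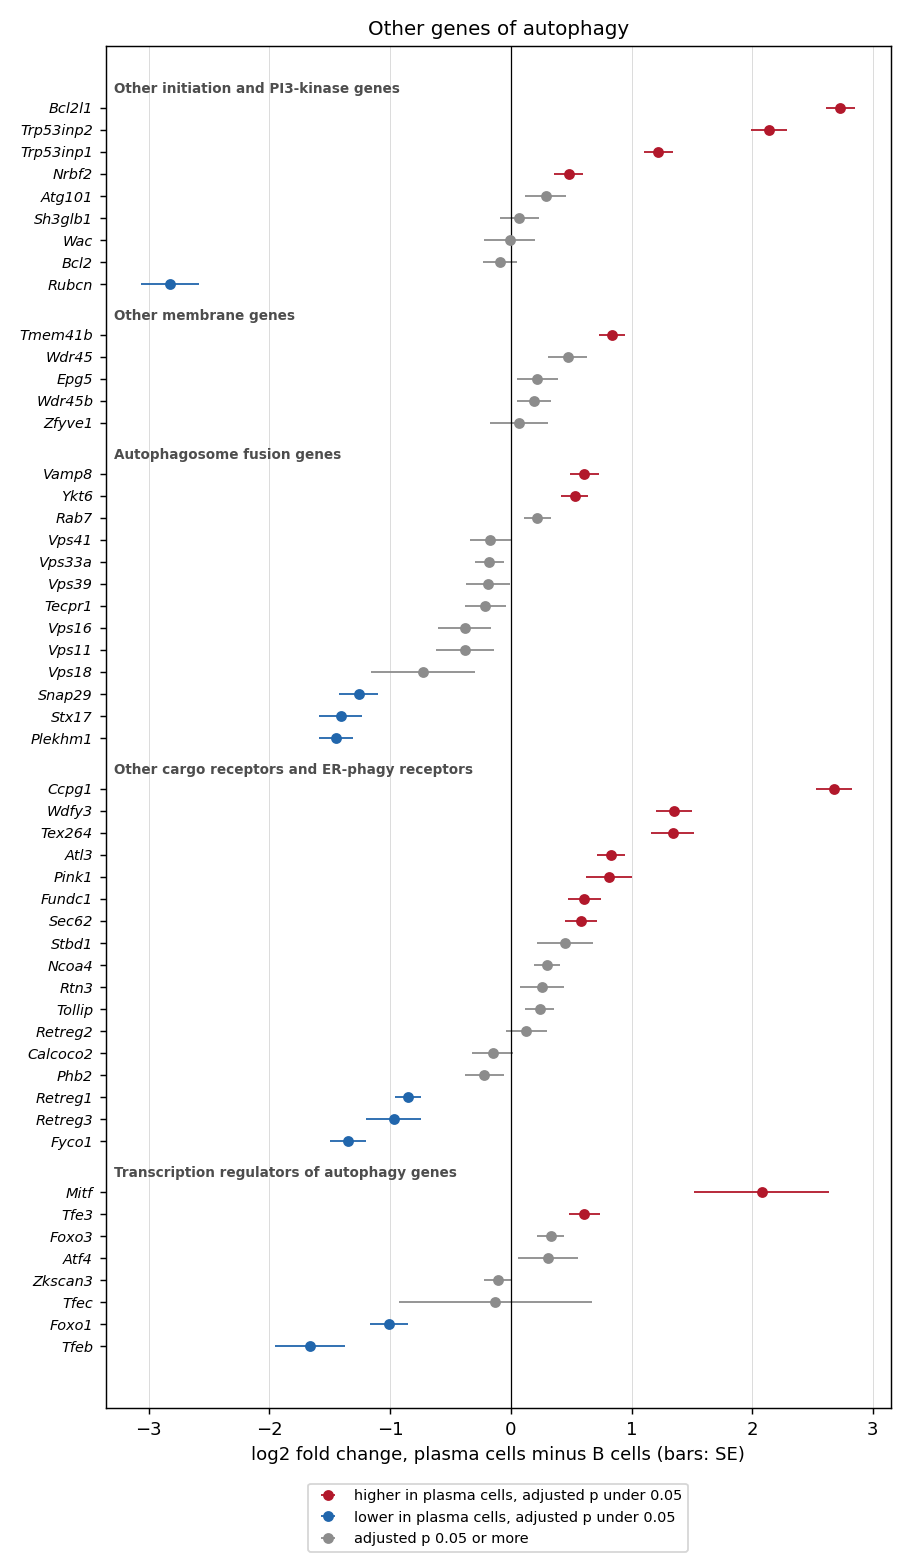
Log2 fold change of plasma cells over B cells with its standard error for 52 other genes of autophagy, in 5 groups. Bcl2l1 (2.73), Ccpg1 (2.68) and Trp53inp2 (2.14) have the highest called values, and Rubcn (−2.82) and Tfeb (−1.66) the lowest.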

How the data were processed

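The deposited table holds intensity values on a linear scale, 1 for every probe set on every array. The sources used here do not say how the authors summarised or normalized them. Per the labels' protocols, total RNA was amplified with NuGEN Ovation V2 and labelled with biotin. Of 45101 probe sets 64 were controls, and 34945 had 1 gene symbol in the platform annotation, 932 several and 9160 none here. Symbols were updated through Entrez identifiers to RefSeq (GRCm38.p6), with 34741 matched. The brightest probe set over the 6 arrays stood for a gene, and log2(intensity + 16) was compared between groups with limma 3.58.1 (lmFit, eBayes) in R 4.3.3 over all 18193 genes, adjusted by Benjamini-Hochberg, so fold changes of dim genes are understated. The fit was tested on simulated data. Members, gene lists, motifs and settings were chosen with earlier results of these data known. Values on every array are given for called members with at least a 2-fold change, the brightest member of each role, the 2 largest uncalled differences and, beyond that rule, other members picked once their values had been seen. Of the other autophagy genes, up to 3 called in each direction fell under the rule, and the rest were likewise chosen afterwards. Alternatives were the added constant (1, 64), a background filter, probe set choice, quantile normalization, median centring, array weights, a trend in eBayes, the replicate number as a block and omission of each array. The labels do not say whether the arrays of a group are separate animals. By Xist and Kdm5d, B cell array 1 did not come from the same animals as B cell arrays 2 and 3. The p-values thus reflect only how far these arrays spread, possibly in part for technical reasons. Among the B cell arrays that spread also spans both sexes. Precision is limited by there being 3 arrays per group. Arrays with the same replicate number did not deviate together (correlations of 0.042, 0.005 and 0.044 over genes), so the numbers were not used as pairs.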

Additional observations from a re-analysis of the deposited data

How the results depend on the processing

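Of the 12 higher members 6 kept their call under all 16 alternatives, and of the 4 lower members 2 did (Pik3r4 under 15, having no value once sets with the suffixes x or s were left out). Median centring on each array moved the median log2 fold change of all genes to −0.27 and left 6 members higher and 3 lower, against 12 and 4, and 7 other autophagy genes higher, against 16. Over all genes it called 2008 higher and 2727 lower, where the deposited scaling gave 3213 and 2248. Array weights, which gave B cell array 1 a weight of 0.0918, called 18 members higher and 12 lower, and 16 other autophagy genes lower, with 4860 higher and 4696 lower over all genes. With the replicate block, 10 members were higher and 3 lower, and 9 of the other genes higher; over all genes it called 2463 higher and 1658 lower, and none of the same-numbered pairs had a correlation above 0.1. Leaving out 1 array at a time gave 9 to 14 higher and 2 to 9 lower members, the 9 without B cell array 1 and 2 without B cell array 2 or 3 or plasma cell array 1 or 2, beside 2239 to 4135 higher and 1351 to 3856 lower genes in all. It gave 8 to 19 higher and 8 to 15 lower other genes: 8 higher without plasma cell array 1 or 2, 10 without plasma cell array 3, and 15 lower without B cell array 1. Members with differences near 0 changed sign: Rb1cc1 had −0.24 with the mean of all probe sets, −0.14 with median centring and −0.01 without plasma cell array 2 (−0.01 to 0.12 over the arrays left out), and Becn1 −0.14 with median centring, −0.00 with quantile normalization and −0.07 without sets with the suffixes x or s, none of them called. The cause of these shifts was not tested. Each probe set fitted on its own, an alternative added after seeing the data, ended the call of Atg3 among the members described on every array by rule (adjusted p = 0.0563).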
